A study of Mus musculus with 6 samples.

Results

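Genes of leukocyte adhesion to the vessel wall were followed in the skin of female BALB/c mice. The members were the 8 genes with the symbols Vcam1, Icam1, Icam2, Sele, Selp, Itga4, Itgb2 and Selplg. They were found by NCBI gene number among the 27179 genes of the count table, all 8 were present, and all 8 passed the filter on low counts. The mice were between 6 and 8 weeks old and fell into 4 groups. Skin exposed to bleomycin and treated with EHP-101 gave 1 library, skin exposed to bleomycin and treated with ajulemic acid (AJA, a synthetic cannabinoid) gave 3, skin exposed to bleomycin alone gave 1 and control skin gave 1. Bleomycin damages DNA and, given to the skin of mice, is a common way to model scleroderma. The labels give no doses, routes or times. Nor do they tie the 3 AJA libraries to separate animals, so a p-value reflects the scatter of these libraries, part of which may be technical.

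Leukocytes leave the blood in steps. Selectins on activated endothelium, E-selectin (Sele) and P-selectin (Selp), bind carbohydrate on the leukocyte glycoprotein PSGL (Selplg), and the cell slows and rolls. Integrins then bind immunoglobulin-type ligands on the endothelium: the alpha chain encoded by Itga4 forms the integrin that binds Vcam1, and the beta chain encoded by Itgb2 is shared by the leukocyte integrins that bind Icam1 and Icam2. In cultured endothelium Sele, Vcam1 and Icam1 are classic targets of inflammatory cytokines acting through NF-kappaB, whereas Icam2 is expressed by resting endothelium.

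The promoters are shown because these genes are known as cytokine-induced and because Sele and Selp, close together on chromosome 1, had the largest differences from control in 2 of the 3 bleomycin groups. The reference table held windows for 4 members, Sele, Selp, Itga4 and Icam1, and Vcam1, Icam2, Itgb2 and Selplg had no entry. Each window runs from 250 bases before to 50 bases after the RefSeq start on GRCm38.p6, and capitals mark matches on either strand to a loose form of the NF-kappaB motif, which is GGGA, any 4 bases and CC, or to TATAAA. The windows are chr1:164047984-164048283, chr1:164115014-164115313 and chr9:21015690-21015989, all on the plus strand.
Sele: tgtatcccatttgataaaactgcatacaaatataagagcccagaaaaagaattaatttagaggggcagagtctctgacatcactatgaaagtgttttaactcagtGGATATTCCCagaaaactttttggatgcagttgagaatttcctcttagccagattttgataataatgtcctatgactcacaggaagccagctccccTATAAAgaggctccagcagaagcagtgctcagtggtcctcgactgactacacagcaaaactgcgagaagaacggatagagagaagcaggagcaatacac
Selp: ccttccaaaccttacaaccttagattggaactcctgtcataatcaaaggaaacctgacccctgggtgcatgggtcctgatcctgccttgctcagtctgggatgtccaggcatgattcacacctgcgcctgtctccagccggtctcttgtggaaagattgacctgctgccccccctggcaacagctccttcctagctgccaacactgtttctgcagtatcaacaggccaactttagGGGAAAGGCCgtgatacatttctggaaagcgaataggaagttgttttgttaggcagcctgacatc
Icam1: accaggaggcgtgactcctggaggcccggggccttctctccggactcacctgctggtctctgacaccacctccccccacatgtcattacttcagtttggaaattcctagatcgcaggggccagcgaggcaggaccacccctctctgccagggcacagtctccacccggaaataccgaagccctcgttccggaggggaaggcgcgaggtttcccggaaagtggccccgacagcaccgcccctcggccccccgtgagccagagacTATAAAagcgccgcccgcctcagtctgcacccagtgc
The Sele window held 1 NF-kappaB motif match on the minus strand, read on the plus strand as GGATATTCCC and beginning at position -145 from the start, and TATAAA at -49. The Selp window held 1 match, GGGAAAGGCC at -15, and no TATAAA. The Icam1 window held no match to the NF-kappaB motif, and TATAAA at 14, downstream of the RefSeq start. The Itga4 window held none of these motifs. Of 32851 promoter windows of this length, 20.7% held the form with GGGA, 50.8% the looser form and 13.6% TATAAA. A match, or the lack of one, describes these letters only.

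Libraries held between 14291592 and 19837682 counts. Levels are given in CPM, the count scaled to the TMM-adjusted library size, and with 1 library a group the error shown is the exact 95% Poisson interval, which covers counting error only. The tissue label was checked against 10 keratinocyte and dermal fibroblast markers, none of which was at 0 in any library. The 10 muscle markers below were not at 0 in any library either, so this check was weak. In every library except control the skin markers summed to less than the muscle markers. Some transcripts differed widely between libraries. Summed over 12 hair markers the level was 170 CPM in AJA replicate 2 and 157 CPM in bleomycin, but between 1860 and 5365 CPM elsewhere, and 11 hepatocyte markers summed to between 4.44 and 22.5 CPM with AJA and between 685 and 1120 CPM in the other libraries. Summed over 10 muscle markers the level was 23579 CPM with EHP-101, 16065, 22570 and 9907 CPM in AJA replicates 1, 2 and 3, 23490 CPM in bleomycin and 8597 CPM in control. The hepatocyte markers thus divided the AJA libraries from all the others, and every comparison with AJA carries that difference. Its source was not tested. In bulk skin, fewer cells of a type and less RNA per cell cannot be told apart.

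Per kb of exon, Itgb2 and Icam1 had the highest levels of the 8 genes in every library. Itgb2 averaged 11.2 CPM per kb over the 6 libraries and Icam1 9.20 CPM per kb. Selp averaged 4.03, Vcam1 3.79, Itga4 2.88, Sele 2.57, Selplg 2.25 and Icam2 1.85 CPM per kb. The order below the top pair was not fixed. Sele was the lowest of the 8 in control, at 0.542 CPM per kb, while Icam2 was the lowest in bleomycin and in each AJA library, and Selplg was the lowest with EHP-101. The span from the lowest to the highest library was 7.24-fold for Sele, 6.04-fold for Selp and 3.92-fold for Vcam1, and between 1.64-fold and 2.46-fold for the other 5 genes.

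The first comparison asked how bleomycin-exposed skin differed from control skin. Of the 8 genes, 7 had a higher level in bleomycin and 5 of them, Vcam1, Sele, Selp, Itgb2 and Selplg, were at least 2-fold higher. Over all genes tested, 7.75% had a log2 fold change of at least 1 and 49.5% one above 0. The largest differences were in the selectins and Vcam1, and Icam2 stood level. None of the 8 passed edgeR's quasi-likelihood test after adjustment over 17377 genes.

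Among the ligands on the endothelium, Vcam1 (gene 22329, chromosome 3, 116110020 to 116129688 in mm10), the ligand of the Itga4 integrin, was at 24.2 CPM in bleomycin (interval 21.8 to 26.8) and 6.18 CPM in control (4.99 to 7.56). The 2 intervals were far apart. The log2 fold change was 1.97 (SE 0.31; edgeR adjusted p = 0.434). Icam1 (gene 15894, chromosome 9, 21015960 to 21028797), the ligand of the Itgb2 integrins, was at 24.5 CPM in bleomycin (22.1 to 27.0) and 16.4 CPM in control (14.4 to 18.5). Its log2 fold change of 0.58 (SE 0.23; edgeR adjusted p = 0.742) was smaller in size than that of Vcam1, a difference between genes that was not tested. Icam2 (gene 15896, chromosome 11, 106377656 to 106382641), the ligand of resting endothelium, had 30 counts in each library, 1.93 CPM in bleomycin and 1.97 CPM in control. The 95% interval of its log2 difference, -1.43 to 1.36, was wide.

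Both endothelial selectins were several-fold higher in the bleomycin library. Sele (gene 20339, chromosome 1, 164048234 to 164057677) had 144 counts, 9.24 CPM, in bleomycin (7.79 to 10.9) and 24 counts, 1.58 CPM, in control (1.01 to 2.35). That was a log2 fold change of 2.55 (SE 0.67; edgeR adjusted p = 0.617), the largest of the 8 genes. Selp (gene 20344, chromosome 1, 164115264 to 164150026), which platelets also hold, was at 14.9 CPM in bleomycin (13.0 to 16.9) and 4.21 CPM in control (3.24 to 5.37), a log2 fold change of 1.82 (SE 0.57; edgeR adjusted p = 0.709). The 7 platelet markers summed to 13.5 CPM in bleomycin, where Gp6 was at 0, and 19.5 CPM in control.

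On the leukocyte side, Itgb2 (gene 16414, chromosome 10, 77530348 to 77565674) was at 39.9 CPM in bleomycin (36.8 to 43.1) and 16.2 CPM in control (14.3 to 18.4), a log2 fold change of 1.30 (SE 0.25; edgeR adjusted p = 0.467). Selplg (gene 20345, chromosome 5, 113817798 to 113830501), the selectin ligand, was at 6.99 CPM in bleomycin (5.74 to 8.44) and 3.29 CPM in control (2.44 to 4.33), a log2 fold change of 1.09. Itga4 (gene 16401, chromosome 2, 79255426 to 79333114) was closer, at 32.5 CPM in bleomycin (29.8 to 35.5) and 24.3 CPM in control (21.9 to 26.9). Pan-leukocyte markers were higher in the same library: all 16 were higher, with a median log2 fold change of 0.80, and their summed level was 559 CPM in bleomycin and 318 CPM in control. Against that median Itgb2 differed by 0.49 more, Selplg by 0.29 more and Itga4 by 0.38 less, on the log2 scale. The part of leukocyte number in these differences was not tested.

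**Figure D1:**
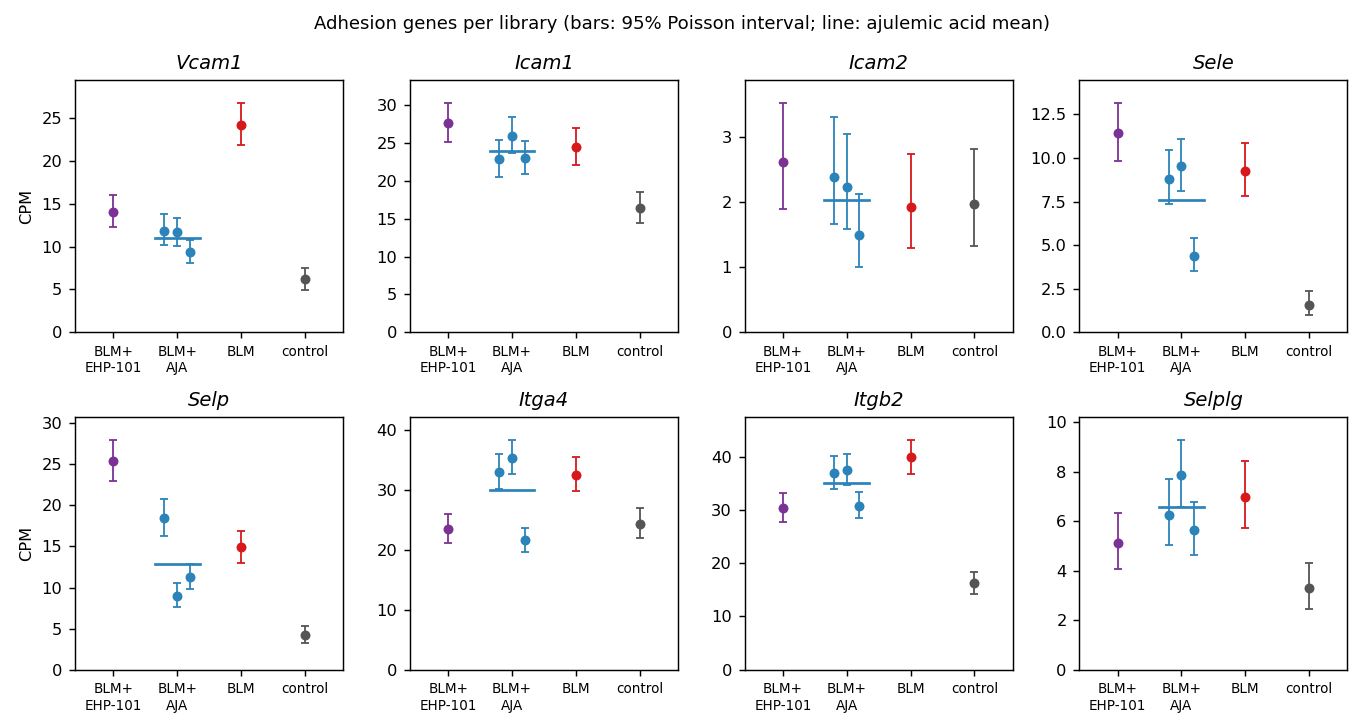
CPM of the 8 adhesion genes in each library, from left to right bleomycin with EHP-101, bleomycin with ajulemic acid, bleomycin and control; points are libraries, bars exact 95% Poisson intervals and the horizontal line the mean of the 3 ajulemic acid libraries. Control is the lowest library for Vcam1, Icam1, Sele, Selp, Itgb2 and Selplg, and Vcam1 is highest in bleomycin alone, at 24.2 CPM.

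By edgeR 0 of the 8 genes passed after Benjamini-Hochberg adjustment, where 0% of all genes passed. At an unadjusted p under 0.05, 5 of the 8 were higher and 0 lower, against 4.7% and 2.1% of all genes tested. DESeq2 called Vcam1 (adjusted p = 0.00843) and limma called 0 of the 8. Without AJA replicate 3, which leaves 1 residual degree of freedom, edgeR called Vcam1 (adjusted p = 0.0344) and Sele (adjusted p = 0.0312). Over the 10 alternatives the adjusted p of Vcam1 lay between 0.00843 and 0.999 and that of Sele between 0.0312 and 0.999.

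Markers of the vessels themselves differed less than the selectins and Vcam1. Of 25 endothelial markers, none of which was at 0 in any library, 17 were higher in bleomycin than in control, with a median of 0.34, and their summed level was 647 CPM in bleomycin and 522 CPM in control. Relative to that median the log2 difference was 2.20 for Sele, 1.63 for Vcam1, 1.48 for Selp, 0.24 for Icam1 and -0.38 for Icam2. Bulk skin does not show which cells held these transcripts, so the values are not levels per vessel. The level of Sele ran beside that of muscle genes. By the smallest root mean square difference of mean-centred log2 CPM over the 6 libraries, among 12765 genes, the 3 genes most like Sele were the myosin heavy chains Myh1 (0.159) and Myh2 (0.160) and the muscle actin-binding protein Lmod2 (0.173). Myh1 was at 1795 CPM with EHP-101, 1382, 1820 and 663 CPM in AJA replicates 1, 2 and 3, 1806 CPM in bleomycin and 323 CPM in control. All 10 skeletal muscle markers were higher in bleomycin than in control, with a median of 1.43. The part of muscle in the Sele difference was not tested.

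**Figure D2:**
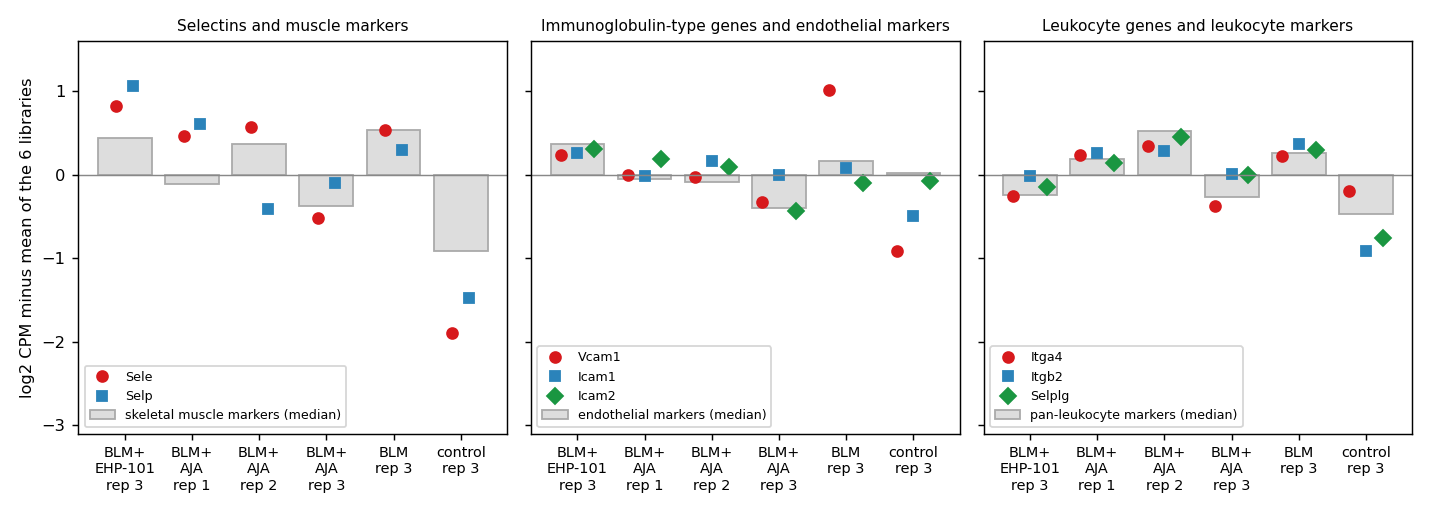
Log2 CPM of each adhesion gene (points) minus its mean over the 6 libraries, beside the median of a marker list on the same scale (grey bars), for each library; selectins are set beside skeletal muscle, Vcam1, Icam1 and Icam2 beside endothelial and the other 3 genes beside pan-leukocyte markers. Sele, like the muscle markers, is lowest in control and next lowest in AJA replicate 3. Selp is also lowest in control but next lowest in AJA replicate 2, at -0.41, where the muscle median is 0.37. Vcam1 in bleomycin stands above the endothelial median. Itgb2 and Selplg in control lie below the pan-leukocyte median.

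The second comparison set the EHP-101 library against bleomycin alone. Vcam1 and the 3 leukocyte genes were lower with EHP-101, while Icam1, Icam2 and both selectins were higher. For each gene but Vcam1 the limits of the edgeR fit's 95% interval had opposite signs. Of the 8 genes 4 were higher and 4 lower, against 50% and 50% of all genes tested. Vcam1 was at 14.0 CPM with EHP-101 (12.3 to 15.97) and 24.2 CPM in bleomycin (21.8 to 26.8), a log2 fold change of -0.79 (SE 0.30; edgeR adjusted p = 0.9998, unadjusted p = 0.0471). Of the 25 endothelial markers 18 were higher with EHP-101, their median was 0.11, and Vcam1 lay 0.89 below that median on the log2 scale. Selp was at 25.4 CPM with EHP-101 (23.0 to 28.0), its highest library, and 14.9 CPM in bleomycin (13.0 to 16.9). The log2 fold change of Selp was 0.77 with a 95% interval of -0.64 to 2.18. Sele was at 11.4 CPM with EHP-101 and 9.24 CPM in bleomycin, and Icam1 at 27.6 and 24.5 CPM in the same order, with Poisson intervals that overlap for both genes.

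Itgb2 was at 30.4 CPM with EHP-101 and 39.9 CPM in bleomycin, Itga4 at 23.4 and 32.5 CPM and Selplg at 5.13 and 6.99 CPM in the same order. Their log2 fold changes were -0.39, -0.47 and -0.45, lying 0.12, 0.04 and 0.06 above the pan-leukocyte median of -0.51. All 16 pan-leukocyte markers were lower, with a summed level of 398 CPM with EHP-101 and 559 CPM in bleomycin. By edgeR 0 of the 8 genes passed (0% of all genes did), and 1, Vcam1, was lower at an unadjusted p under 0.05, against 1.32% of all genes lower and 0.575% higher. DESeq2 called 0 of the 8 after adjustment and 0 at an unadjusted p under 0.05, and limma called 0 after adjustment and 1 at an unadjusted p under 0.05. The unadjusted p of Vcam1 was also above 0.05 with upper-quartile scaling, with library sizes taken without the tissue lists and without AJA replicate 1.

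The third comparison set the AJA libraries against bleomycin alone. Vcam1 had the only unadjusted p under 0.05 among the 8 genes. It was at 11.9, 11.6 and 9.38 CPM in AJA replicates 1, 2 and 3 and 24.2 CPM in bleomycin, so all 3 AJA libraries lay below the bleomycin library and were close to each other. The AJA mean was 10.96 ± 1.37 CPM (SD, n = 3), and the log2 fold change was -1.14 (SE 0.23; edgeR adjusted p = 0.491, unadjusted p = 0.00447). Over all genes tested 24.6% had all 3 AJA libraries below the bleomycin library, and among the 8 genes Vcam1 and Itgb2 did. With the EHP-101 library added, all 4 treated libraries lay below bleomycin for the same pair, as for 20.6% of all genes. Itgb2 was at 36.9, 37.4 and 30.8 CPM in AJA replicates 1, 2 and 3 and 39.9 CPM in bleomycin, but its Poisson interval in bleomycin, 36.8 to 43.1, overlapped those of replicates 1 and 2. Endothelial markers were lower in the AJA libraries, 23 of 25 with a median of -0.32, which left Vcam1 0.82 below that median.

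For the other 6 genes the bleomycin value lay within the range of the 3 AJA libraries. Icam1 was at 22.8, 26.0 and 23.0 CPM in AJA replicates 1, 2 and 3 and 24.5 CPM in bleomycin, a log2 difference with a 95% interval of -0.52 to 0.46. The selectins varied most within the AJA group. Sele was at 8.80, 9.52 and 4.39 CPM in replicates 1, 2 and 3 and 9.24 CPM in bleomycin, and Selp at 18.4, 9.0 and 11.3 CPM in the same replicates and 14.9 CPM in bleomycin. Replicate 3 was thus low for Sele and replicate 1 high for Selp, so these genes ranked the 3 replicates differently. The coefficient of variation in the AJA group was 36.7% for Sele and 38.1% for Selp, against 7.38% for Icam1, 10.47% for Itgb2 and 12.5% for Vcam1. Itga4, at 32.9, 35.4 and 21.6 CPM in replicates 1, 2 and 3, was also lowest in replicate 3. Selplg was at 6.59 ± 1.14 CPM with AJA (SD, n = 3) and 6.99 CPM in bleomycin, and Icam2 at 2.04 ± 0.477 and 1.93 CPM in the same order.

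Pan-leukocyte markers in these libraries summed to 510, 667 and 381 CPM in AJA replicates 1, 2 and 3 and 559 CPM in bleomycin, and endothelial markers to 539, 512 and 431 CPM and 647 CPM in the same order, so replicate 3 was the lowest AJA library on both. Its part in the values of Sele and Itga4 was not tested. By edgeR 0 of the 8 genes passed (0% of all genes did). At an unadjusted p under 0.05, Vcam1 was lower and 0 of the 8 were higher, against 3.21% and 0.622% of all genes. DESeq2 and limma called 0 of the 8 after adjustment and 1, Vcam1, at an unadjusted p under 0.05. The adjusted p of Vcam1 lay between 0.154 and 1 over the 10 alternatives.

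**Figure D3:**
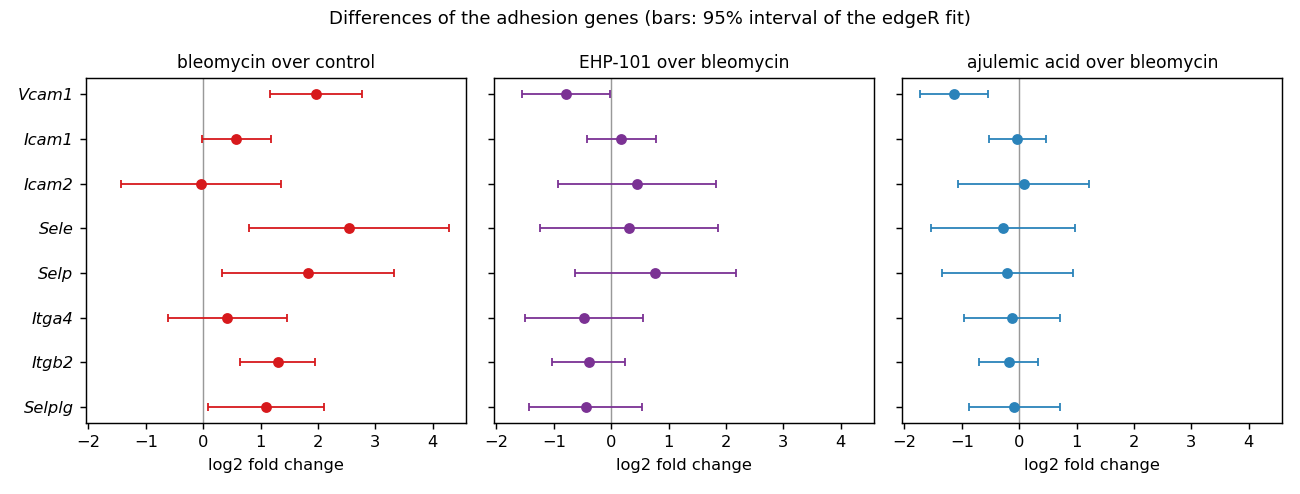
Log2 fold changes of the 8 adhesion genes with 95% intervals of the edgeR fit, for bleomycin over control, EHP-101 over bleomycin and ajulemic acid over bleomycin. Vcam1 lies at 1.97 in the first panel and at -0.79 and -1.14 in the others, and in the right panel the interval of each other gene spans 0.

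EHP-101 and AJA were also set side by side. The labels hold no dose of either, so the values do not compare the compounds at matched dose, and there was 1 EHP-101 library. Selp was at 25.4 CPM with EHP-101 and 12.9 ± 4.91 CPM with AJA (SD, n = 3), a log2 difference of 0.98 with a 95% interval of -0.11 to 2.07. Vcam1 was at 14.0 CPM with EHP-101 and 10.96 ± 1.37 CPM with AJA, a difference of 0.36 with an interval of -0.26 to 0.98. For Vcam1, Icam1, Icam2, Sele and Selp all 3 AJA libraries lay below the EHP-101 library, while for Itgb2 and Selplg all 3 lay above it, against 18.3% and 19.8% of all genes tested. The 25 endothelial markers were all higher with EHP-101 than with AJA (median 0.47) and the 16 pan-leukocyte markers all lower (median -0.47). None of the 8 passed edgeR's test (0% of all genes did), 0 had an unadjusted p under 0.05 (1.97% of all genes were higher and 0.397% lower), and DESeq2 and limma called 0.

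Against control, both selectins were at least 3-fold higher in each treated group and Vcam1 was 2.27-fold higher with EHP-101 and 1.77-fold higher with AJA, none of them past the adjusted threshold. Sele was at 11.4 CPM with EHP-101, 7.57 ± 2.78 CPM with AJA (SD, n = 3) and 1.58 CPM in control. Its log2 fold change against control was 2.85 (SE 0.67; edgeR adjusted p = 0.723) with EHP-101 and 2.25 (SE 0.60; edgeR adjusted p = 0.413) with AJA. Selp, at 25.4 CPM with EHP-101, 12.9 ± 4.91 CPM with AJA and 4.21 CPM in control, had log2 fold changes of 2.59 and 1.61. Vcam1 had log2 fold changes of 1.18 (SE 0.31) with EHP-101 and 0.83 (SE 0.26) with AJA. Itgb2 was at 30.4 CPM with EHP-101, 35.0 ± 3.67 CPM with AJA and 16.2 CPM in control. Icam1 was at 27.6 CPM with EHP-101, 23.9 ± 1.77 CPM with AJA and 16.4 CPM in control.

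For 6 of the 8 genes, Vcam1, Icam1, Sele, Selp, Itgb2 and Selplg, all 5 bleomycin-exposed libraries lay above control, which was so for 22% of all genes tested. These comparisons share the single control library with the first one and are no independent support of it. By edgeR 0 of the 8 genes passed in EHP-101 against control (0% of all genes did) and 0 in AJA against control (0.0345% of all genes did). The genes that passed in AJA against control were all lower with AJA, and 3 of them were hepatocyte markers. At an unadjusted p under 0.05, 5 were higher with EHP-101 and 6 with AJA, against 2.92% and 3.02% of all genes. DESeq2 called Sele (adjusted p = 0.0425) and Selp (adjusted p = 0.0148) with EHP-101 and Sele (adjusted p = 0.0461) and Itgb2 (adjusted p = 0.0388) with AJA, and limma called 0 in each. Without AJA replicate 3, edgeR called Sele with EHP-101 (adjusted p = 0.0215) and Sele (adjusted p = 0.0105) and Itgb2 (adjusted p = 0.0431) with AJA. Over the 10 alternatives the adjusted p went up to 1 for Sele and Selp with EHP-101 and to 0.9999 for Sele and Itgb2 with AJA.

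The other genes of the adhesion cascade had smaller median differences between bleomycin and control than the 8 genes, whose median log2 fold change was 1.19 beside -0.01 over all genes tested. Both the 8 genes and the lists were chosen with earlier results of these data known, so this contrast may partly reflect that choice. Leukocyte integrins and their activators were higher for 9 of 10 tested genes (median 0.65). Itgax, the alpha chain of an Itgb2 integrin of dendritic cells and macrophages, was at 23.0 CPM in bleomycin and 7.49 CPM in control, and Itgae, the alpha chain of an integrin that binds E-cadherin, at 9.31 CPM in bleomycin and 4.99 CPM in control. Rasgrp2, an activator of integrins, was at 2.50 CPM in bleomycin and 4.99 CPM in control. Itgax was nearer to control in the treated groups, at 10.8 CPM with EHP-101 and 10.95 ± 2.90 CPM with AJA (SD, n = 3).

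The 12 tested genes of the selectin pathway included 9 that were higher (median 0.36). The leukocyte mucin Spn was at 9.31 CPM in bleomycin and 3.35 CPM in control. Cd34, a sialomucin of endothelium and progenitors, went the other way, at 100.6 CPM in bleomycin and 189 CPM in control, as did the fucosyltransferase Fut4, at 1.73 CPM in bleomycin and 3.68 CPM in control. Endothelial adhesion and junction genes were divided, 8 of 13 tested being higher (median 0.28). The scavenger receptor Stab1 was at 134 CPM in bleomycin and 70.1 CPM in control and the junction protein Pecam1 at 76.2 CPM in bleomycin and 45.5 CPM in control. Aoc3, an amine oxidase of endothelium and adipocytes, was at 40.0 CPM in bleomycin and 82.9 CPM in control, and Alcam at 81.3 CPM in bleomycin and 131 CPM in control.

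All 12 tested inducing cytokines and receptors were higher in bleomycin than in control (median 0.59). So were 13 of 14 genes of a list of NF-kappaB subunits and regulators with Irf1, Klf2 and Klf4 (median 0.36). Il1b, an inducer of Sele and Vcam1 in endothelium, was at 5.07 CPM in bleomycin and 1.97 CPM in control, and the lymphotoxin Ltb had 24 counts in bleomycin and 8 in control. Nfkbia, the inhibitor that NF-kappaB itself induces, was at 96.4 CPM in bleomycin and 55.6 CPM in control, and Nfkbiz at 97.8 CPM in bleomycin and 54.2 CPM in control. Klf2, a factor of quiescent endothelium, was at 9.75 CPM in bleomycin and 11.9 CPM in control. With EHP-101 against bleomycin, 11 of the 12 cytokine and receptor genes were lower (median -0.42), against 50% of all genes tested. With AJA against bleomycin 8 of 12 were lower (median -0.12), beside a median of 0.02 over all genes tested. The exception with EHP-101 was Il1b, at 5.80 CPM with EHP-101, 6.98 ± 1.61 CPM with AJA (SD, n = 3) and 5.07 CPM in bleomycin, log2 differences from bleomycin of 0.19 and 0.46. Of the 61 genes tested in these 5 lists, 0 passed edgeR's or limma's test in any of the 6 comparisons, and DESeq2 called 1, Aoc3, lower with AJA than in control. In bleomycin against control, edgeR gave an unadjusted p under 0.05 to 8 of the 61 that were higher and 1 that was lower, against 4.7% and 2.1% of all genes, and by DESeq2 5 were higher and 1 lower.

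**Figure D4:**
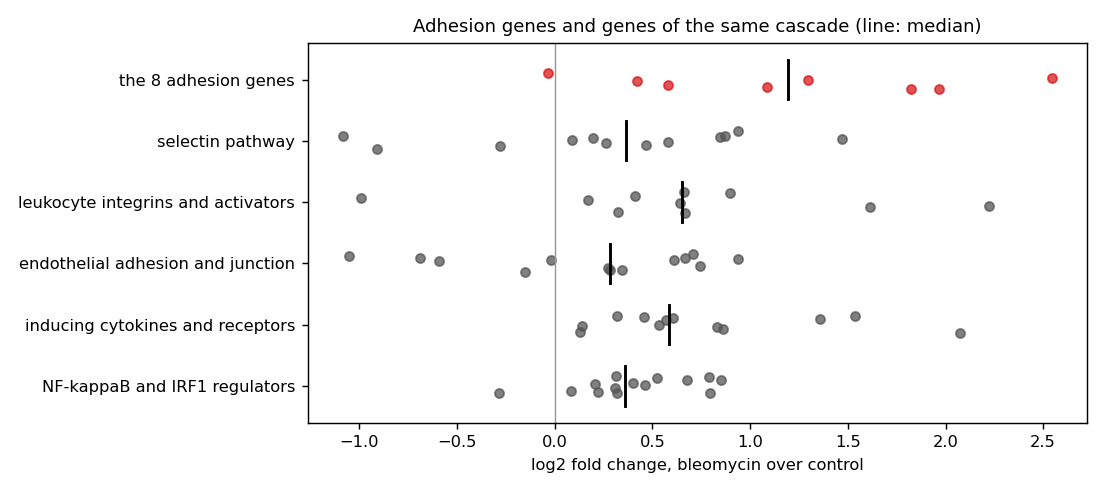
Log2 fold changes, bleomycin over control, of the 8 adhesion genes and of the tested genes in 5 lists of the same cascade; each point is 1 gene and the black line the list's median. The 8 genes have a median of 1.19, above the medians of 0.28 to 0.65 of the other lists; all were chosen with earlier results of these data known.

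By the same measure of likeness, the genes closest to Vcam1 over the 6 libraries were Adam8 (0.078), a metalloproteinase of leukocytes, Csmd1 (0.133) and Csf2rb2 (0.174), a cytokine receptor chain. Adam8 was at 23.7 CPM with EHP-101, 22.9, 21.7 and 18.7 CPM in AJA replicates 1, 2 and 3, 43.3 CPM in bleomycin and 12.0 CPM in control. Its highest and lowest libraries were thus those of Vcam1. The genes closest to Itgb2 were Coro6 (0.063), the cytokine signalling inhibitor Socs3 (0.087) and the leukocyte myosin Myo1f (0.089). Selplg ranked 17 of 12765 in likeness to Itgb2, while Itga4 ranked 1610. In likeness to Sele, Selp ranked 124 (0.491), Itgb2 264 (0.590) and Vcam1 271 (0.596). Itgb2 ranked 267 in likeness to Vcam1, while Selp ranked 5163 and Sele 5545.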

How the data were processed

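Total RNA of skin was sequenced. Per the labels' protocols, 300 ng of RNA per sample went into stranded libraries depleted of ribosomal RNA and read as single 50 bp ends. The authors deposited raw read counts per NCBI gene number. Trimmomatic 0.36, HISAT2 2.1.0, featureCounts 1.6.1, DESeq2 1.20.0 and mm10 are named in the submitters' processing notes. How featureCounts was set for strand and for multiply matching reads is not stated in these sources. The exon length column of the deposited tables served for levels per kb. A second deposited table held the same counts for the 6 libraries (0 differing values). It has 6 further columns, which the series' design text assigns to another series; their names give 2 each to control, bleomycin and EHP-101. They are not analysed here, so each n of 1 and the 2 residual degrees of freedom hold for the 6 libraries of this series alone. RefSeq symbols were found for 25275 of 27179 gene numbers. Exons of 3 members overlap genes on the opposite strand: for Selp a gene with 0 to 4 counts, for Itga4 Cerkl with 5 to 10 and for Selplg a gene with 0.

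Groups came from the titles. The test was edgeR 4.0.16 (R 4.3.3): filterByExpr (minimum count 10, 17377 genes), TMM, 1 robust quasi-likelihood fit of all 6 libraries, two-sided F-tests, Benjamini-Hochberg adjustment over all genes and a threshold of 0.05. Its 2 residual degrees of freedom come from the 3 AJA libraries, and the single libraries are assumed to vary like them. The common biological coefficient of variation was 0.267. The AJA libraries differed from each other far beyond sampling noise (chi-square per degree of freedom at least 37.3), so they were not merged as repeat reads of 1 library. This value cannot show that they came from separate animals, and counting each as a replicate is an assumption. SEs were derived from log2 fold change and F. The script was tested on simulated data. Alternatives were DESeq2 1.42.0, limma-trend 3.58.1, other scalings and filters, no robust option and leaving out each AJA library.

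Members and gene lists were chosen with earlier results of these data known. Text names all members, in each cascade list the 2 genes with the largest positive and the 2 with the most negative log2 fold change in bleomycin against control (mean count at least 20; fewer where fewer qualified), and the 3 genes most like Vcam1, Sele and Itgb2 (mean log2 CPM, prior count 3, at least 2). The values of 1 gene that this rule names are not reported here. Lists for lymphatic, neutrophil, macrophage, T, B, mast and adipocyte cells were summed too.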

Additional observations from a re-analysis of the deposited data

How the results depend on the processing

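No paired analysis was possible because, among the 6 libraries analysed, the groups share a single replicate number; the columns of another series that carry other numbers of control, bleomycin and EHP-101 were left out. The counts of genes past the threshold, out of 17377, depended on the tool and on single AJA libraries. By edgeR they were 0 in every comparison except AJA against control, where they were 6, all lower with AJA and 3 of them hepatocyte markers. DESeq2 called 165 genes in bleomycin against control, 10 in EHP-101 against bleomycin, 103 in AJA against bleomycin, 64 in EHP-101 against AJA, 122 in EHP-101 against control and 276 in AJA against control. limma called 0 in AJA against control. With no filter on low counts edgeR called 41 in AJA against bleomycin, 16 in EHP-101 against AJA and 153 in AJA against control. Leaving out 1 AJA library gave 0 to 177 calls in bleomycin against control, 0 to 92 in AJA against bleomycin, 0 to 67 in EHP-101 against AJA, 0 to 91 in EHP-101 against control and 0 to 367 in AJA against control; the highest was without replicate 3 each time. The cause was not tested.

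For the 8 genes, 463 of 480 values under the 10 alternatives kept their direction and their side of the threshold, 10 passed the threshold that edgeR's fit of all libraries did not, and 7 changed sign, each a difference near 0. Every alternative reused the same pair of libraries in the comparisons among bleomycin, EHP-101 and control. A kept direction there was close to fixed in advance and says nothing of other animals. In AJA against bleomycin these were Icam1 at 0.0017 and Icam2 at -0.0477 without replicate 1, Selp at 0.0036 without replicate 2, and Itga4 at 0.0702 and Selplg at 0.0158 without replicate 3; leaving out each replicate gave ranges of -0.0814 to 0.0017 for Icam1, -0.0477 to 0.2617 for Icam2, -0.5538 to 0.0036 for Selp, -0.2456 to 0.0702 for Itga4 and -0.2223 to 0.0158 for Selplg. In AJA against control Icam2 was at -0.0808 without replicate 1 and -0.0930 without replicate 2, in a range of -0.0930 to 0.2272. Vcam1 kept its direction in all 6 comparisons, with the same limit for those between single libraries. Icam2, with 30 to 43 counts per library, is the member most limited by depth.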

Other observations

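Levels of leukocyte classes were summed over their markers. The 8 neutrophil markers summed to 22.2 CPM with EHP-101, 26.2, 34.5 and 21.4 CPM in AJA replicates 1, 2 and 3, 54.2 CPM in bleomycin and 15.1 CPM in control, and Ly6g was at 0 in every library. In bleomycin against control the median log2 fold change was 2.22 over 6 tested neutrophil markers, 0.58 over 13 T cell markers and 0.23 over 13 macrophage markers, and 0 genes of these lists passed edgeR's test. T cell markers summed to 38.4 CPM in bleomycin and 19.2 CPM in control. B cell markers were near the limit of detection, between 0.399 and 1.58 CPM in sum. Mast cell markers summed to 66.5 CPM with EHP-101, between 38.3 and 129 CPM in the AJA libraries, 73.2 CPM in bleomycin and 112 CPM in control. Lymphatic endothelial markers summed to 61.4 CPM in bleomycin and 43.4 CPM in control. White adipocyte markers were lower in bleomycin for all 8 genes (median -1.10).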
